A study of Mus musculus with 2 samples.

Results

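The olfactory receptor genes of mouse chromosome 9 were 129 of the 21938 protein-coding genes of GENCODE M21 on mm10. The rule takes every protein-coding gene of chromosome 9 called Olfr followed by a number, and it uses no measured value. Open chromatin around them was read from DNase-seq of left cerebral cortex from females aged 2 months, in 2 libraries taken as 2 animals. The labels give separate female numbers but the same donor entry. The animals were B6CASTF1/J, a hybrid whose parents are the strains C57BL/6J and CAST/EiJ. In DNase-seq nuclei are lightly digested with DNase I, and the ends of the released DNA are sequenced to show where DNA is exposed. The 2 libraries are biological replicates 1 and 2 of 1 untreated group, so the chromosome 9 receptors are set beside other genes and regions of the same libraries, with the spread over replicates and no test between groups. Both animals carry 1 CAST/EiJ copy of each autosome, and differences between the copies were not analysed here.

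Olfactory receptors are G-protein-coupled receptors that bind odorants at the cilia of olfactory sensory neurons in the nose. Their genes lie in tandem clusters, and each mature sensory neuron expresses a single allele of a single receptor gene while the others are held in heterochromatin. In those neurons the choice depends on enhancers within the clusters that are bound by the homeodomain factor LHX2, EBF factors and the adaptor LDB1. The cortex is not a site of odorant detection, and the genes serve here as a large, dense family in a brain tissue that does not require them for that role.

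The receptors formed 2 clusters when genes under 200 kb apart were joined. Cluster 1 lay at chr9:18751507-20336094, ran from Olfr24 to Olfr18 over 1.585 Mb and held 36 receptors. Cluster 2 lay at chr9:37708964-40190134, ran from Olfr160 to Olfr986 over 2.481 Mb and held 93 receptors. The 129 genes had 271 annotated transcription start sites (TSS), and 86 were on the plus and 43 on the minus strand. Interspersed with them were 43 further Olfr loci that the rule leaves out, each a pseudogene by name or annotated class. The annotation counts 3 of these 43 as protein-coding, and with Zfp317, Vwa5a, AW551984 and Tmem225 they make up the 7 protein-coding genes of the spans that are not members of the family set.

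The sequences that carry the comparison are given first, on mm10 (GRCm38.p6), 5′ to 3′. The first pair shows the intergenic cluster peaks of highest signal. One lies 14.1 kb from the nearest TSS of Olfr878 (chr9:37932621-37932840, plus strand, capitals mark matches to the AP-1 letters TGACTCA and the TATA letters TATAAA, both on the minus strand). The other lies 2.44 kb from Olfr957 (chr9:39509121-39509280, plus strand, capitals mark a CTCF match and the NEUROD-type letters CAGATG). The third is the peak in the intron of Olfr967 (chr9:39746740-39747014, plus strand, capitals mark CG), the only peak in either library to reach a receptor promoter window.
Peak near Olfr878: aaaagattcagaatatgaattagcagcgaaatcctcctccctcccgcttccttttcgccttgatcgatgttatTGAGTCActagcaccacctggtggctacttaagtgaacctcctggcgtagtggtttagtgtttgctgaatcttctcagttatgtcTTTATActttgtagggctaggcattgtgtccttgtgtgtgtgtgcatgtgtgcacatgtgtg
Peak near Olfr957: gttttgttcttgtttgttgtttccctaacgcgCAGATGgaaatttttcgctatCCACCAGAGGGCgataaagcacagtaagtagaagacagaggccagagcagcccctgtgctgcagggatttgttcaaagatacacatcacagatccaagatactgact
Peak near Olfr967: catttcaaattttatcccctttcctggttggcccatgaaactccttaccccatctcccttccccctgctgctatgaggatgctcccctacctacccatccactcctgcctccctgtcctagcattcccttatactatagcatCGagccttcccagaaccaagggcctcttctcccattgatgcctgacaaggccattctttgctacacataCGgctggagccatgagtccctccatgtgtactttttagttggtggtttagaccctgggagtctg

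Next come 3 RefSeq promoter windows of 300 bases on GRCm38.p6, with every CG in capitals. They show the contrast in CpG content described further on. The promoter of Olfr160 (chr9:37712231-37712530, minus strand) stands for receptors with no CG, that of Olfr967 (chr9:39750138-39750437, plus strand) has 1, and that of Zfp317 (chr9:19621841-19622140, plus strand), a zinc-finger gene inside cluster 1, has 16. The RefSeq start of Olfr967 is not the GENCODE start beside the intronic peak, so this promoter and that peak do not overlap. Both receptor windows lie inside the GENCODE gene. Each ends in an ATG with a reading frame open to the window end. They may thus hold intron and coding DNA rather than a promoter.
Promoter of Olfr160: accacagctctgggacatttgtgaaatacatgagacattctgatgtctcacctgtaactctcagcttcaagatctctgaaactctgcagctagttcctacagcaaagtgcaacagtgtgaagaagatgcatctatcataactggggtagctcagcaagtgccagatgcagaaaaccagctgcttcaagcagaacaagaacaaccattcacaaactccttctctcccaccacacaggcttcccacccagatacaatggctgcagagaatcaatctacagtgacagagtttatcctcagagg
Promoter of Olfr967: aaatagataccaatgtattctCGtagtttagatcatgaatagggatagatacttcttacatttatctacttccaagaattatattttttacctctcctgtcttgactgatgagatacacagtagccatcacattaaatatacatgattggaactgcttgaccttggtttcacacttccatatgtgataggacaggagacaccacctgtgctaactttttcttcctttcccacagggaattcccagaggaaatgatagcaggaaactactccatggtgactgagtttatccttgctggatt
Promoter of Zfp317: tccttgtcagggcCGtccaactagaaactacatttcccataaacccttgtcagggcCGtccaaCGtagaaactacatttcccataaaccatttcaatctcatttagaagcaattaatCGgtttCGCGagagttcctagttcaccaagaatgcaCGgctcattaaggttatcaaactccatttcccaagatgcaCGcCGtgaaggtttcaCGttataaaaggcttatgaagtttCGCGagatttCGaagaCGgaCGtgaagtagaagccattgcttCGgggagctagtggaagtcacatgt

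None of the 129 receptors had a peak within 500 bp of any of its TSS in both libraries. A peak is a stretch of high cut density called by the authors in each library alone, and the larger of their 2 lists per library, called at a false discovery rate (FDR) of 0.05, was used. Among the 1081 other protein-coding genes of chromosome 9, 804 had such a peak in both libraries (74.4%), and 848 had one in at least 1 library (78.4%). Across all chromosomes the share was 14114 of 20845 genes other than Olfr (67.7%). In bulk tissue a promoter open in a small number of cells and a promoter opened slightly in all cells cannot be told apart, and a peak absent from the lists is a site below the calling threshold rather than a measured 0.

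Olfr967 (ENSMUSG00000055820.2, chr9:39746249-39751493, plus strand) was the receptor that came closest. Its peak began 0.491 kb from a TSS in replicate 1, with a signal of 0.262, and 0.541 kb from it in replicate 2, with a signal of 0.2497, just outside the window. Signal is the authors' height of the cut density after scaling to read depth. The 2 libraries thus differed little in level (0.256 ± 0.008, SD, n = 2) and fell on different sides of the window edge. The peak held 3 footprints, short protected stretches inside accessible DNA, in replicate 1 and 0 in replicate 2. Of its bases 88.4% were repeat-masked, and 84.5% of the other chromosome 9 peaks had a higher signal in replicate 1 and 87.5% in replicate 2.

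Beyond the 500-bp window, the next receptors each had a peak in 1 library alone. For Olfr923 it lay 626 bp away in replicate 1 (signal 0.145). For Olfr145 it lay 663 bp away in replicate 2 (0.240), and for Olfr876 673 bp away in replicate 2 (0.418). With a window of 1 kb the count of receptors with a peak in both libraries became 1, Olfr967.

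The other readouts gave the same picture at the promoters. The cut-rate tables list stretches whose local cut rate has an FDR below 0.05, and 0 receptors had a listed stretch at the promoter in both libraries, against 812 of 1081 other genes of the chromosome (75.1%). Olfr967 had 10 listed bp in replicate 1, with a lowest q-value of 0.047, and none in replicate 2. Footprints touched 0 receptor promoters in replicate 1 and 0 in replicate 2, against 792 other genes with one in both (73.3%).

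Chemosensory genes elsewhere were similarly sparse. Of the 964 Olfr genes of other chromosomes, 10 had a promoter peak in both libraries (1.04%) and 31 in at least 1 (3.22%). The 3 highest of the 10 were Olfr94 on chromosome 17 with 1.46 and 1.16, Olfr1392 on chromosome 11 with 0.712 and 1.01, and Olfr1414 on chromosome 1 with 0.625 and 0.759, in replicates 1 and 2 in that order. Vomeronasal receptor genes, which detect pheromones, had 2 of 207 in the Vmn1r family and 0 of 120 in the Vmn2r family. Of the 15 Taar genes, which encode trace amine receptors, 0 had a peak in both libraries.

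Gene bodies were also sparse in peaks. Of the 129 receptor genes, with a median length of 5463 bp, 4 held a peak anywhere in the body in replicate 1 and 4 in replicate 2. Both libraries had one in Olfr943, Olfr148 and Olfr967, and Olfr145 and Olfr923 had one in a single library. To compare genes of like length, those under 10 kb were taken, with a median of 5228 bp for 113 receptors and 5180 bp for 294 other genes of the chromosome. A peak in the body in both libraries was found in 2 of these receptors (1.77%), against 182 of the other genes (61.9%). Peaks beyond 500 bp of the gene's own TSS were found in 1 of the 113 receptors (0.885%), against 60 of the 294 others (20.4%). The peak in the intron of Olfr148, at chr9:39612089-39612249 and 1295 bp from a TSS, had a signal of 0.310 in replicate 1 and 0.504 in replicate 2. In Olfr943 the replicate 1 peak and the replicate 2 peak lay beside each other without overlap.

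Distances from the receptors to the nearest peak were long. The median distance from a receptor's nearest TSS was 84.2 kb in replicate 1 and 77.2 kb in replicate 2, while the median of the other chromosome 9 genes was 0 in both, a peak lying on the TSS itself. Within 10 kb of a peak were 18 receptors in replicate 1 and 17 in replicate 2, of which 10 were the same in both libraries. Among the other genes 968 were that close in replicate 1 (89.6%) and 971 in replicate 2 (89.8%). Over 100 kb away were 56 receptors in replicate 1 and 53 in replicate 2, 45 of them in both, against 13 and 12 other genes. The farthest in replicate 1 was Olfr251, 427.9 kb from a peak and 210.6 kb in replicate 2. The farthest in replicate 2 was Olfr895, at 320.0 kb and at 326.2 kb in replicate 1.

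**Figure D1:**
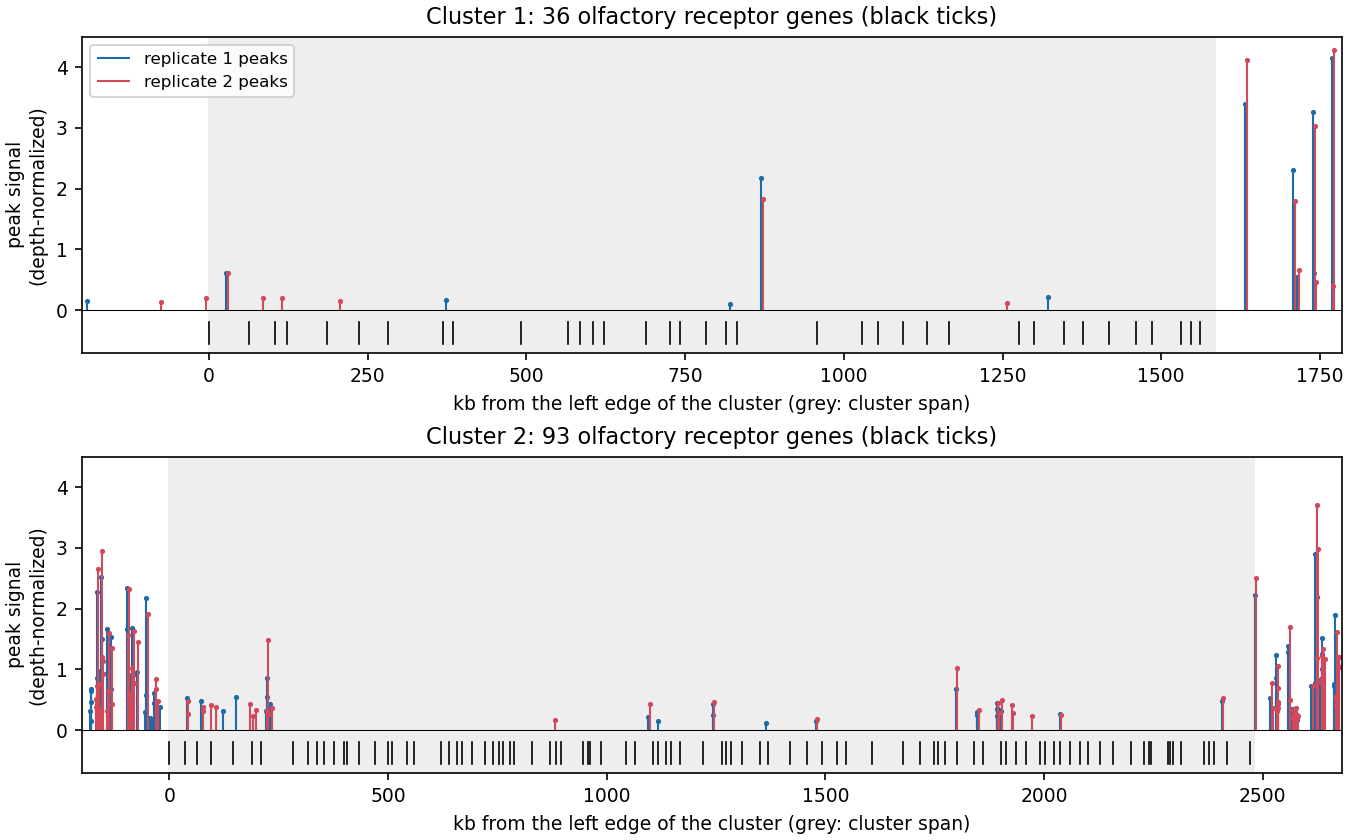
Peaks and receptor genes along both clusters. The horizontal axis is the distance in kb from the left edge of each cluster, with the cluster shaded grey and 200 kb shown on either side, the vertical axis is the peak signal (depth-normalized cut density), and stems of the 2 replicates are drawn slightly side by side. Black ticks mark receptor genes. Long shaded stretches dense in ticks hold no peak, and the highest shaded peak is at the Zfp317 promoter, with 2.18 in replicate 1 and 1.83 in replicate 2.

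Taken over their whole length, the cluster spans held 30 peaks in replicate 1 and 33 in replicate 2, against 7415 and 7116 in the rest of the chromosome. This is 7.75 ± 0.52 peaks per Mb in the spans and 62.05 ± 1.81 in the rest (SD, n = 2 libraries), where the rest excludes unsequenced bases. The density was 8.58-fold lower in the spans than in the rest in replicate 1 and 7.49-fold lower in replicate 2. The gap was far larger than the spread between libraries. That spread does not measure how density varies between regions. Windows of 1 Mb outside the clusters ran from 3.5 to 207 peaks per Mb, as means over both libraries. Cluster 1 was the sparser, with 3.16 and 3.79 peaks per Mb in replicates 1 and 2, and cluster 2 had 10.1 and 10.9.

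Peaks inside the clusters were also lower. Their median signal was 0.317 in replicate 1 and 0.336 in replicate 2, against 0.547 and 0.586 in the rest of the chromosome, so that it was 1.73 ± 0.01 times lower in the spans (SD, n = 2). The median width was 188.5 and 161 bp in the spans and 201 and 200 bp in the rest. Footprints numbered 70 in replicate 1 and 51 in replicate 2, or 14.9 ± 3.30 per Mb, against 155.1 ± 18.3 per Mb in the rest. Peaks holding at least 1 footprint were 63.3% and 60.6% of those in the spans, and 77.0% and 76.7% of those in the rest. Stretches listed in the cut-rate tables covered 0.209% ± 0.033 of the spans and 2.14% ± 0.22 of the rest.

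A smaller share of cluster peaks than of other peaks was found in both libraries when all signals were pooled. At like signal the order varied. Of the span peaks, 17 of 30 in replicate 1 (56.7%) and 18 of 33 in replicate 2 (54.5%) also had a peak in the other library, against 67.3% and 70.8% in the rest. Among peaks with a signal from 0.25 to 0.5, it was 10 of 13 in the spans and 48.0% in the rest for replicate 1, and 11 of 18 and 53.5% for replicate 2. From 0.5 to 1 it was 5 of 6 against 83.6% in replicate 1 and 3 of 3 against 82.3% in replicate 2, and at 1 or more every cluster peak was found in the other library, 1 in replicate 1 and 3 in replicate 2, against 98.9% and 98.4% in the rest. Below 0.25 it was 1 of 10 against 18.3% in replicate 1, and 1 of 9 against 21.8% in replicate 2. The span counts per signal range are small.

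Merging the peaks of both libraries gave 45 places in the clusters, 9 in cluster 1 and 36 in cluster 2. Of these 17 were in both libraries, 13 in replicate 1 alone and 15 in replicate 2 alone. By annotation at the centre base, 33 were intergenic, 6 lay in the body of a receptor gene, 5 in Zfp317 or AW551984, and 1 in a pseudogene alone. An intergenic one found in both libraries, chr9:37941101-37941660 near Olfr878, covered a start site of the pseudogene Olfr879-ps1. Of the intergenic ones, 1 was 108 bp from a TSS of AW551984. In the smaller, stricter peak lists of the authors, called at an FDR of 0.001, 14 were present in replicate 1 and 9 in replicate 2, with 7 in both.

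The highest peak of the clusters belonged to no receptor. It covered a start site of Zfp317, which encodes a zinc-finger protein, at chr9:19622001-19622380, with a signal of 2.18 in replicate 1 and 1.83 in replicate 2 (2.00 ± 0.25, SD, n = 2) and 5 and 9 footprints. Only 9.33% of the other chromosome 9 peaks were higher in replicate 1, and 14.4% in replicate 2. The nearest receptor TSS was that of Olfr855, 37.5 kb away. In cluster 2, AW551984 had 5 promoter peaks in replicate 1 and 2 in replicate 2. The higher of the shared ones lay at chr9:39602571-39603040, with 0.455 and 0.447 in replicates 1 and 2, 7615 bp from Olfr148. The other, at chr9:39604081-39604400, covered a start site and had 0.344 and 0.2785. Zfp317 and AW551984 were 2 of the 7 non-receptor protein-coding genes in the spans. The other 5, Vwa5a, Tmem225 and 3 loci named as Olfr pseudogenes, had no promoter peak in either library.

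Away from those genes, the 2 peaks printed above led. The one near Olfr878 had a signal of 0.862 in replicate 1 and 1.48 in replicate 2 (1.17 ± 0.44), with 5 and 2 footprints. The one near Olfr957 had 0.678 in replicate 1 and 1.02 in replicate 2 (0.851 ± 0.244), with 2 and 3 footprints. Replicate 2 was the higher in both, and each stood above the median of the other chromosome 9 peaks in both libraries.

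In cluster 1 the leading peak outside Zfp317 lay 15.5 kb from Olfr24, at chr9:18779541-18779920. It had a signal of 0.610 in replicate 1 and 0.615 in replicate 2, with 6 footprints in each library. Its GC content was 63.7%, with 18 CG in 380 bp, the highest GC content among the 17 places found in both libraries. With Zfp317 it was the only place in cluster 1 that both libraries shared.

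The remaining shared places of high mean signal were all in cluster 2. The peak 2.84 kb from Olfr984 had 0.480 in replicate 1 and 0.538 in replicate 2, and the peak 4.33 kb from Olfr874 had 0.533 and 0.475. The peak near Olfr933 had 0.436 and 0.466, and the peak near Olfr875 had 0.484 and 0.389. A neighbour of the strongest Olfr878 peak had 0.552 and 0.269, the largest relative gap between libraries among these. Of the 17 shared places, 13 held a footprint in both libraries.

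**Figure D2:**
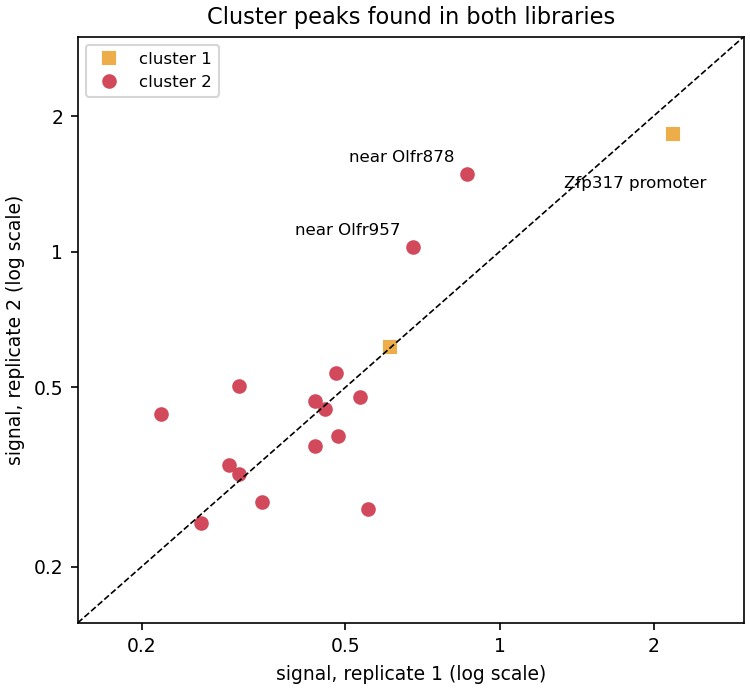
Signal in replicate 2 (vertical axis, log scale) against replicate 1 (horizontal axis, log scale) for the 17 cluster places found in both libraries, in depth-normalized cut density. The dashed line marks equal signal, and the Zfp317 promoter is the point at 2.18 and 1.83.

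Cluster peaks were uneven along cluster 2. Its first 250 kb held 14 of the 36 merged places, 6 of them in both libraries, and 7 of the 93 receptors. The next stretch was the longest of chromosome 9 with no peak in either library, 646.8 kb at chr9:37941661-38588480, and it held 26 receptors, Olfr881 to Olfr912 in order of position. Of the 10 longest peak-free stretches of the chromosome, 4 lay in the clusters. The others of the 4 were 447.3 kb with 11 receptors (Olfr837 to Olfr854), 385.2 kb with 6 (Olfr857 to Olfr77) and 370.0 kb with 16 (Olfr968 to Olfr984). The other 6 stretches, outside the clusters, held between 0 and 2 protein-coding genes each.

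The low peak density did not go with low gene density. In windows of 1 Mb, the window chr9:19000001-20000000 had 3 peaks in replicate 1 and 1 in replicate 2, the lowest mean of 121 windows, and 22 protein-coding genes, 20 of them receptors. The window chr9:38000001-39000000 had 4 and 3 peaks and 45 protein-coding genes, 42 of them receptors. The window chr9:39000001-40000000 had 12 and 10 peaks and 37 genes, 36 of them receptors. Those 3 windows lay wholly in the clusters and ranked 1, 3 and 10 from the lowest. Of the other windows, 14 had 20 or more protein-coding genes. Their means ran from 60.5 to 171 peaks per Mb with a median of 106, and both extremes lay outside the clusters. Among the 14, chr9:20000001-21000000 lay 33.6% in a cluster, with 10 receptors among 27 genes and 65.5 peaks per Mb. Likewise chr9:37000001-38000000 lay 29.1% in a cluster, with 8 receptors among 22 genes and 124 peaks per Mb. Both reached 20 genes only with their receptors. The 10 windows in which no protein-coding gene starts ran from 3.5 to 63.5, with a median of 16.8.

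**Figure D3:**
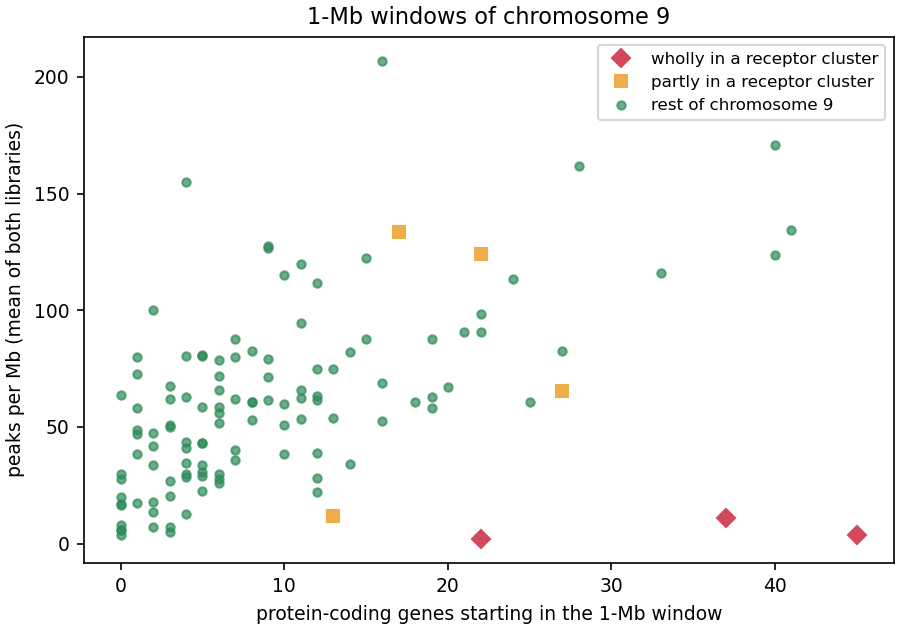
Peak density against gene density in 1-Mb windows of chromosome 9. The horizontal axis is the number of protein-coding genes in a window, the vertical axis the mean number of peaks per Mb over both libraries, and the windows wholly in the receptor clusters are marked. They sit at 2, 3.5 and 11 peaks per Mb with 22, 45 and 37 genes, while the other windows of 20 or more genes start at 60.5.

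At the borders the clusters differed. On the left of cluster 2 the first 100 kb inside held 2 peaks in replicate 1 and 5 in replicate 2, against 29 and 12 in the 100 kb outside. On its right there were 1 and 1 inside, against 17 and 25 outside. Cluster 1 had no such step within 100 kb of its borders. There were 1 and 2 peaks inside its left edge against 0 and 2 outside. Inside its right edge there were 0 and 0, against 1 and 1 outside. Over 200 kb outside, its right flank held 30 and 35 peaks per Mb in replicates 1 and 2, and its left flank 5 and 10. Cluster 1 itself held 3.16 and 3.79.

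Of the 16 protein-coding genes within 200 kb of a cluster, 12 had a promoter peak in both libraries. Zfp202, a zinc-finger gene 2.18 kb beyond the right end of cluster 2, had a promoter signal of 2.23 in replicate 1 and 2.51 in replicate 2. Its neighbour inside, Olfr986, had no promoter peak, and its nearest peak was 5.22 kb away in replicate 1 and 5.10 kb in replicate 2. Zfp560, 9.04 kb beyond the right end of cluster 1, had 3.40 and 4.12, beside Olfr18 with no promoter peak. Nrgn, which encodes the postsynaptic protein neurogranin, lay 156.1 kb left of cluster 2 and had 2.52 and 2.95. These 3 flanking genes were picked after their values were seen.

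**Figure D4:**
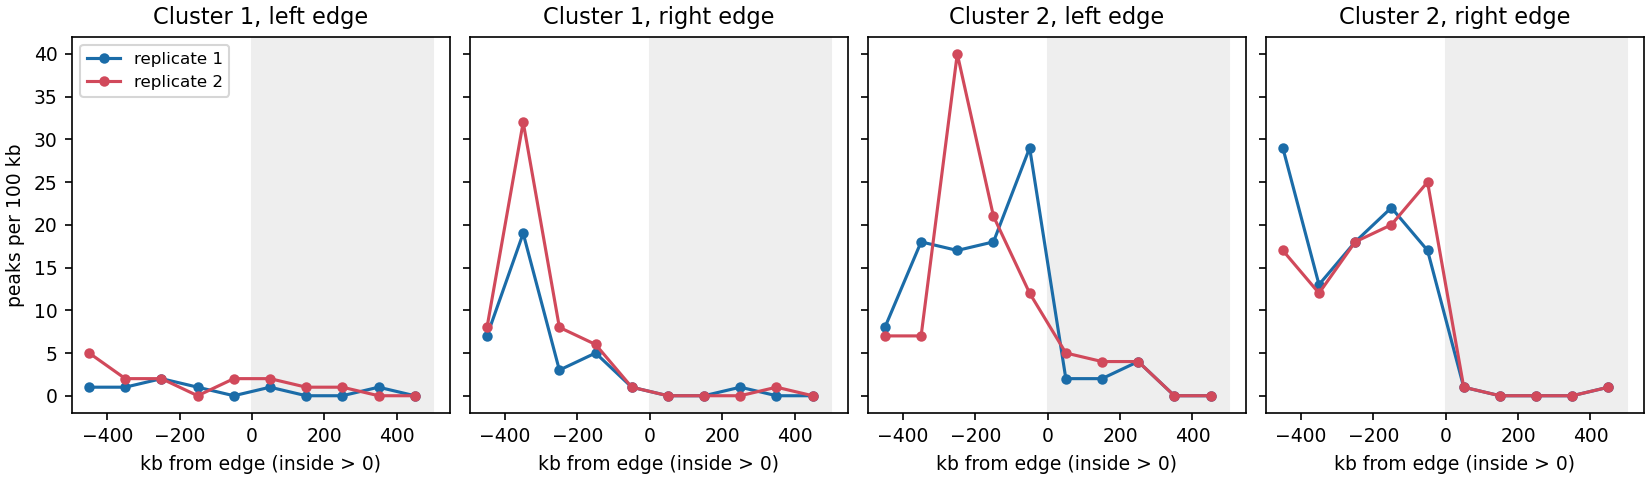
Peaks per 100 kb around the 4 cluster borders. The horizontal axis is the distance from the border in kb, negative outside and positive inside (grey), and the vertical axis is the number of peaks in each library. Both borders of cluster 2 step down inside, to 2 and 5 peaks on the left and 1 and 1 on the right, while cluster 1 has at most 2 peaks in the 100 kb on either side of each border.

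The cluster DNA differed in composition from the rest of the chromosome. Its GC content was 37.8%, against 42.9%, and it had 5.14 CG per kb, against 8.97. Repeat-masked bases made up 48.7% of the spans and 31.4% of the rest. Of all 31-base words, 74.3% in the spans and 87.3% in the rest occurred once in the genome, a measure of how much of the DNA a short read can be placed in. Only peaks with at least 50% unique words were then counted. Per Mb of such words there were 9.93 of these peaks in the spans and 70.3 in the rest, a gap 7.08-fold wide. At the promoters the receptor windows had a median of 94.5% unique words (63.4% to 100%), and of the 87 receptors with 90% or more, 0 had a peak in both libraries, against 761 of 974 other genes at that level (78.1%).

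The RefSeq promoter windows of the receptors were AT-rich and poor in CG. RefSeq promoters were found for 108 of the 129 receptors, 109 promoters in all. Many of them lie inside the GENCODE gene, well away from its outermost 5′ end, as do those of Olfr160 and Olfr967 printed above. These RefSeq promoters thus need not hold the starts at which peaks were counted. Their CG counts may describe DNA inside the gene instead. Their median GC content was 34.0%, against 54.3% for the 1807 other promoters of chromosome 9, which include those of genes that code for no protein, and the median number of CG was 1, against 9. In 38 of the 109 there was no CG at all (34.9%), as in Olfr160 above, against 4.15% of the others, and none had 10 or more, against 48.8%. Olfr promoters of other chromosomes were alike, with a median GC content of 35.3% and a median of 1 CG.

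CpG content tracked promoter peaks among the other protein-coding genes of the chromosome that had a RefSeq promoter, each taken at its promoter of most CG. Of those with no CG, 1 of 14 had a promoter peak in both libraries, of those with 1 to 3 it was 17 of 93 (18.3%), with 4 to 9 it was 65 of 131 (49.6%), and with 10 or more 593 of 635 (93.4%). The receptors had 0 of 38, 0 of 65 and 0 of 5 in the first 3 of these ranges and no gene in the last. The CG count and the peak count of a gene can come from different windows. Whether CpG content accounts for the absence of receptor peaks was not tested.

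**Figure D5:**
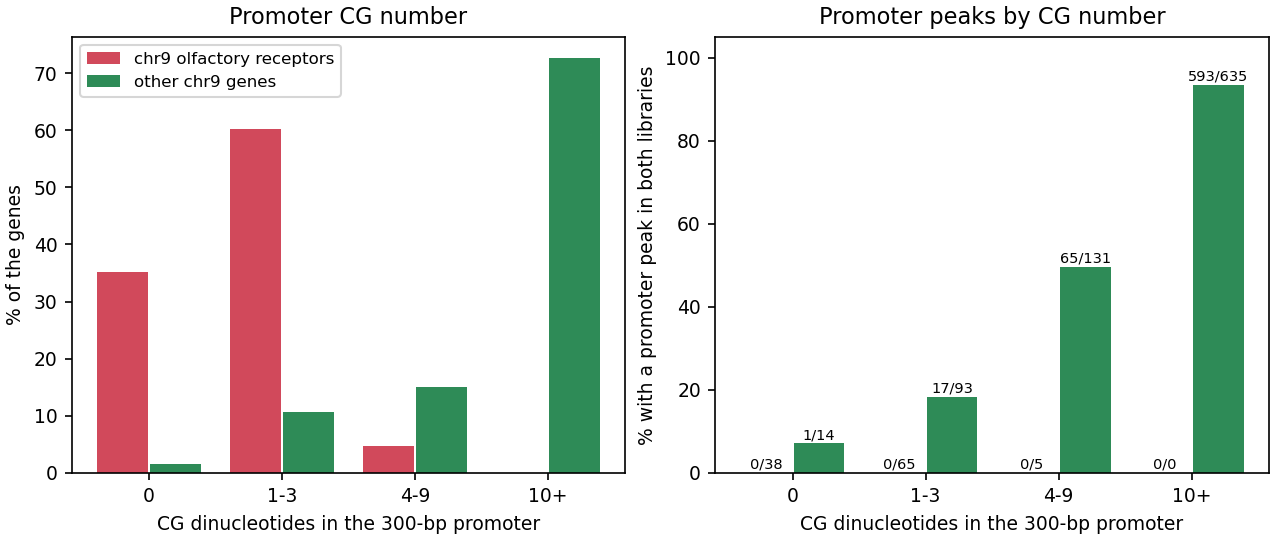
Promoter CG number and promoter peaks, by ranges of CG in the 300-base RefSeq promoter (horizontal axes), with receptors as the left and other protein-coding genes of chromosome 9 as the right bar of each pair. The left panel gives the percent of each set of genes in each range, and the right panel the percent of those genes with a promoter peak in both libraries, with counts above the bars. The other genes run from 1 of 14 with no CG to 593 of 635 with 10 or more, and the receptors are at 0 in the 3 ranges that hold any. CG was counted in the RefSeq promoter and peaks within 500 bp of any GENCODE TSS, which can be different windows.

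Letters bound by known factors were searched on both strands, and a match is a description of the sequence, not a site. The CTCF letters were CCA, C or G, C or T, AG, A or G, G or T, and GGC. Every letter had to fit. The receptor windows searched were the 109 RefSeq promoters. Many of them lie inside the GENCODE gene, so matches there need not describe sequence at a transcription start. The homeodomain letters TAATTA, of the kind LHX2 binds, were in 28 of the 109 (25.7%). This compares with 4.04% of other chromosome 9 promoters and 5.29% of all. The TATA letters TATAAA were in 49 (45.0%), against 11.8% and 13.6%. The EBF letters TCCCNNGGG were in 2 (1.83%), against 7.36% and 6.56%. Olfr promoters of other chromosomes held TAATTA in 17.7%, TATAAA in 40.7% and the EBF letters in 2.6%. TAATTA and TATAAA hold only A and T, and the part of the AT-rich composition in these shares was not tested. The NEUROD-type letters CAGATG were in 19 (17.4%), against 18.9% and 17.2%, the AP-1 letters TGACTCA in 3 (2.75%), against 4.65% and 5.20%, and CTCF matches in 0, against 0.885% and 0.557%. The MEF2 letters TATTTATAG or TATTTTTAG were in 2 (1.83%), against 0.885% and 0.965%.

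In the cluster peaks, searched over the 150 bp at their centres, the counts were small and are given beside the 9043 other merged peaks of chromosome 9. TAATTA was in 2 of 45 (4.44%), against 1.55%, and the EBF letters in 2 (4.44%), against 3.57%. CAGATG was in 8 (17.8%), against 15.7%, TGACTCA in 3 (6.67%), against 5.22%, and TATAAA in 3 (6.67%), against 3.75%. A CTCF match was in 1 (2.22%), the peak near Olfr957, against 3.33%, and the MEF2 letters in 0, against 0.553%. The printed peak near Olfr878 missed the CTCF letters by the last one alone, on its minus strand, and was not counted. The cluster peaks had a median GC content of 50%, against 52.3%. At least 50% of bases were repeat-masked in 7 of the 45 (15.6%), against 5.16% of the others.

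Genes that act with the receptors in the nose had promoter peaks at shares to be read against the 67.7% of all genes other than Olfr. All 12 genes of the receptor choice list had a promoter peak in both libraries. Lhx2 had a signal of 3.09 ± 0.06, Ldb1 2.54 ± 0.06, Ebf1 0.808 ± 0.199, and Kdm1a, the histone demethylase LSD1, 4.72 ± 0.88 (SD, n = 2 each). Lbr, the lamin B receptor, which tethers heterochromatin to the nuclear envelope, had 5.06 ± 0.53. Of the 3 genes whose products carry receptors to the cell surface, Reep1 had 1.47 ± 0.10, and Rtp1 and Rtp2 had no peak.

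In the odorant transduction list, 9 of 14 genes had a promoter peak in both libraries. Gnal, the olfactory G-protein alpha subunit that is also used in brain, had 1.95 ± 0.19, Adcy3, the adenylate cyclase of olfactory cilia, had 2.20 ± 0.31, and Ric8b, an exchange factor for that G protein, had 5.68 ± 0.25. The channel subunit genes Cnga2 and Cnga4 and the gene Stoml3 had none in either library. Cngb1 had a peak of 0.303 and Omp, the olfactory marker protein, a peak of 0.572 in replicate 2 alone.

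The label of the tissue was checked by the same promoter count. The counts are to be read against the 67.7% of protein-coding genes other than Olfr with such a peak in both libraries. In lists this short, a count near that share says little about the tissue. Markers of excitatory neurons (8 of 8), inhibitory neurons (3 of 3) and astrocytes (3 of 3) had a peak in both libraries, as did 2 of 3 oligodendrocyte markers, with Sox10 lacking one. Microglial markers had 0 of 3 in both, and replicate 2 alone had a peak at Cx3cr1 (0.298) and Csf1r (0.499). Of 5 markers of olfactory sensory neurons only Gng8 had one in both (2.57 ± 0.09), and Alb, Myod1 and Krt5, genes of liver, muscle and epidermis, had none. The libraries held peaks in similar number, 128323 in replicate 1 and 119651 in replicate 2, from about 206.4 and 208.2 M cuts. That depth was read from the step between signal values, taken as 1 cut after scaling to 1 M cuts, and every value checked was a whole number of steps within 0.05 of a step.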

How the data were processed

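DNase-seq calls of 2 cortex libraries were analysed as 1 group. The labels give separate female numbers but the same donor entry, and the libraries were taken as separate animals. The authors aligned to mm10, per the labels, and deposited 2 peak lists, a footprint list and a cut-rate table per library. Aligner, callers and versions: not given in the sources used here. The deposited peak signal is the authors' cut density scaled to read depth. The footprint FDR, a fraction, is 0.01 throughout as deposited. The deposited cut-rate tables give q-values (FDR-adjusted p-values) below 0.05. Alignment to the reference may lose reads of the CAST/EiJ copy, and reads in repeats may be lost; the authors' filters were not examined here.

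Genes came from GENCODE M21, sequence and promoters from RefSeq GRCm38.p6. Any overlap of at least 1 bp counted, except that the annotation of merged places used their centre base. Peaks were called per library, and the larger list was the main one. Peak-free stretches are free of peaks in both libraries and exclude unsequenced bases. Word uniqueness counts 31-base words over both strands of the nuclear genome and was checked on simulated sequence. Python 3.11.15, numpy 2.4.6, pandas 2.3.3, numba 0.67.0 and matplotlib 3.10.9 were used. There were no tests, since all libraries form 1 group. Values after ± are SDs over the 2 libraries, which may include technical spread. Named were receptors with a promoter peak or listed cut rate, those at cluster ends, those nearest the 10 highest shared peaks, open non-receptor genes in the clusters, and the pathway and marker lists. Further receptors were named where they are nearest or farthest from a peak, lie at a window or stretch border or hold a peak, and flanking genes after their values were seen. The members and lists were chosen with earlier results of these data known. Alternatives varied the peak list, window, TSS choice, joining distance, overlap, FDR, denominator and library. The gene-length comparison of gene bodies was chosen after seeing the data.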

Additional observations from a re-analysis of the deposited data

How the results depend on the processing

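Of 38 alternatives, 24 left the value within its limit and 14 moved it. The limit was the SD over the 2 libraries, or an unchanged count for counts of receptors. Leaving out 1 of 2 libraries always stays within that SD, so those alternatives could not move a density, signal or share. Footprints per peak and peaks per Mb of unique words are in other units than the main value. Stricter lists keep fewer calls, so densities and listed shares had to fall with them. The tally of moved values is thus no measure of robustness. In all 28 alternatives that also gave a value for the rest of chromosome 9, the cluster value was lower, by 1.09 to 15.7 times. That cluster value was a mean over libraries or the value of the library kept. Receptors with a promoter peak numbered 0 with the smaller peak list or the outermost 5′ end, 1 with a 1-kb window, and 0 to 1 with 1 library left out (the 1 is Olfr967, without replicate 2). Receptors with a listed cut-rate stretch gave 0 at an FDR under 0.001 and with the outermost end, 1 with the 1-kb window and 0 to 1 with a library left out. Peaks per Mb in the clusters were 2.83 with the smaller list (36.8 in the rest) and 6.03 beyond 1 kb of TSS of other genes (43.4). Peaks with at least 50% unique words numbered 9.93 per Mb of such words (70.3). With a library left out, peaks per Mb in the clusters ranged from 7.38 to 8.12. Median signal was 0.307 with clusters joined under 50 kb and 0.510 with the smaller list. The share of cluster peaks in both libraries was 46.0% when joined under 50 kb, 63.9% ± 19.6 with the smaller list (69.4% in the rest) and 52.4% when 50% of the shorter peak had to overlap. The smaller-list share was 7 of 14 in replicate 1 (50%), below the 68.2% of the rest, and 7 of 9 in replicate 2 (77.8%), above its 70.5%, so its direction depends on the library. The listed share of the spans was 0.0801% at an FDR under 0.001 (1.26% in the rest), and footprints per peak were 1.94 (2.50 in the rest). With a library left out, signal ran from 0.317 to 0.336, the shared percentage from 54.5 to 56.7, the listed percentage from 0.186 to 0.232, and footprints per Mb from 12.5 to 17.2. Joining under 500 kb gave the same spans, so it could not move a value either. The cause of these shifts was not tested. No paired analysis was possible because all libraries belong to 1 group. With 2 libraries the SDs are themselves imprecise, and sites below the calling threshold are not seen.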

Other observations

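The Olfr clusters of other chromosomes varied widely in peak density. Joined by the same rule, 8 of the 60 clusters elsewhere had 30 or more genes, 566 genes in all. Their density ran from 1.08 to 13.2 peaks per Mb, the mean over both libraries, with a median of 5.50. The 13 clusters of 10 to 29 genes ran from 1.79 to 35.9, with a median of 6.09, and 3 of them, 2 on chromosome 11 and 1 on chromosome 19, were above 30 peaks per Mb. The 39 clusters of fewer than 10 genes ran from 0 to 86.0. The chromosome 9 clusters lie within the range of the largest clusters, at 3.47 ± 0.45 peaks per Mb in cluster 1 and 10.5 ± 0.57 in cluster 2 (SD, n = 2).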
